A study of Mus musculus with 12 samples.

Results

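The 10 genes described here encode potassium channels, calcium channels and a calcium pump of arterial smooth muscle: Kcnma1, Kcnmb1, Kcnn4, Kcnc4, Kcna5, Kcnj8, Cacna1c, Ryr2, Itpr1 and Atp2a2. They were chosen by name, through every array probe annotated to them under a current or an older symbol, and all 10 of the 10 were among the 19705 genes tested. They were represented by 15 of 39556 probes, with 1 probe for 6 genes and 2 or more for the other 4, and 1 Kcnma1 probe carried the older name 5730414M22Rik. The study measured aortic arch RNA on 12 microarrays with 2 dyes, in 4 groups of 3 arrays: arches of Apoe-/- mice fed a high-fat diet for 8, 16 or 24 weeks, and of wild type mice fed it for 16 weeks. By label all were C57BL/6 mice that began the diet (a Harlan Teklad diet with 21% fat and 0.15% cholesterol) at 8 weeks of age and were fasted overnight. The Apoe-/- mice were therefore 16, 24 and 32 weeks old at collection and the wild type mice 24 weeks old, so age and length of diet cannot be told apart between the Apoe-/- groups. Every array read a pool of 3 mice, save pool 2, made from 2 mice. Pools 1 to 3 were of 8 weeks, 4 to 6 of 16 weeks, 10 to 12 of 24 weeks and 16 to 18 of wild type. Per the labels the pool carried Cy5 and a common Apoe-/- reference carried Cy3 on every array, with no dye swap. That reference mixed the 3 diet times in equal amounts and is labelled as vehicle-treated and made from 21 mice, while the Apoe-/- pools are labelled as without drug. The design text has the whole aorta collected at dissection and the labels call the tissue aortic arch. An asterisk, left unexplained, stands beside the names of pools 3 and 6.

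The contraction of arterial smooth muscle follows the calcium concentration of its cytoplasm. Calcium enters through L-type channels, whose pore is made by Cacna1c, and is released from the sarcoplasmic reticulum through ryanodine receptors (Ryr2) and inositol trisphosphate receptors (Itpr1). The pump Atp2a2, known as SERCA2, returns it to the store. Potassium channels oppose calcium entry, because potassium leaving the cell makes the membrane more negative and closes the L-type channels. The large-conductance calcium-activated channel, or BK channel, is built from the pore subunit Kcnma1 and, in smooth muscle, the accessory subunit Kcnmb1, which raises its sensitivity to calcium. Kcna5 and Kcnc4 form voltage-gated potassium channels (Kv1.5 and Kv3.4), and Kcnj8 forms the pore of the vascular ATP-sensitive channel (Kir6.1). Kcnn4 forms the intermediate-conductance calcium-activated channel, which contractile smooth muscle has little of and which is known from endothelium, T cells, macrophages and proliferating smooth muscle.

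Values are log2 ratios of a pool over the reference: 0 is the level of the reference, and a difference of 1 between groups is a 2-fold change. They are not levels, so one gene cannot be set against another, and since no intensities were used here, it is unknown whether a probe lay above background. The deposited values were taken as log10. In base 2 or base e every fold and log2 difference here would be smaller, while the p-values would stay. Apoe averaged -0.15 ± 0.05 at 8 weeks, -0.070 ± 0.093 at 16 weeks and 0.091 ± 0.122 at 24 weeks in Apoe-/- pools, against 2.49 ± 0.44 in wild type pools (SD, n = 3 each), as the labels have it. Whether the probes lie in the deleted part of the gene was not examined. Arrays of the 24-week group correlated negatively with those of the 8-week group across probes (median r = -0.54), and the direction was kept because the labels state the dyes and the reference holds all 3 times. The interquartile range of the log2 ratios was widest in pool 2, at 0.47, and lay between 0.12 and 0.32 on the other arrays. Of 16 smooth muscle markers led by Myh11 and Acta2, 0 were higher and 10 lower at 16 weeks than in wild type, and 0 were higher and 12 lower at 24 weeks. Among 10 macrophage markers, 8 were higher at 16 weeks and 9 at 24 weeks.

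Differences were tested with limma over all genes, and a gene was called at a Benjamini-Hochberg adjusted p under 0.05. The comparisons with wild type share the same 3 wild type pools and are given side by side for that reason. At 8 weeks, 1 of the 10 genes was called higher than in wild type (Kcnn4) and 0 lower, while 1.76% of all genes were called higher and 0.736% lower. At an unadjusted p under 0.05 by limma, 4 were lower at 8 weeks, 5 at 16 weeks and 5 at 24 weeks, with 1 higher each time. The share of all genes at that unadjusted threshold was not counted, so these counts have nothing to be set against. At 16 weeks, Kcnn4 was called higher, and Kcnma1 and Kcnmb1 lower, against 6.03% of all genes higher and 4.07% lower. At 24 weeks, Kcnn4 was again the 1 gene called higher, and 5 were called lower: Kcnma1, Kcnmb1, Kcnc4, Kcnj8 and Itpr1. Over all genes, 11.6% were called higher and 11.3% lower in that comparison. The median log2 difference of the 10 genes from wild type was -0.17 at 8 weeks, -0.35 at 16 weeks and -0.45 at 24 weeks, beside medians of -0.011, -0.028 and -0.044 over all genes. Kcna5, Cacna1c, Ryr2 and Atp2a2 were called in none of the 6 comparisons. Over all genes, 347 were higher and 145 lower at 8 weeks, 1189 higher and 802 lower at 16 weeks, and 2285 higher and 2219 lower at 24 weeks. Quantile normalization between arrays changed that balance to 0 higher and 7 lower at 8 weeks and to 400 higher and 493 lower at 16 weeks, and left 2579 higher and 2512 lower at 24 weeks.

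Between diet times within the Apoe-/- arch, Kcnn4 was the only 1 of the 10 genes called between 16 and 8 weeks, and it was higher, where 1.89% of all genes were called higher and 0.507% lower. Between 24 and 16 weeks Kcnn4 was called higher and Kcnc4 lower, against 3.98% of all genes higher and 1.96% lower. Between 24 and 8 weeks Kcnn4 was called higher and Kcnmb1 and Kcnc4 lower, against 14.7% of all genes higher and 14.1% lower. The F test over the 3 times called the same 3 genes, Kcnmb1, Kcnn4 and Kcnc4, and 18.3% of all genes. With quantile normalization 1 gene was higher and 0 lower between 16 and 8 weeks over the whole array, against 372 and 100 without it, and 2572 were higher and 2462 lower between 24 and 16 weeks, against 785 and 387.

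Several of these counts turned on single pools, and the counts over all genes moved as well. The count at 8 weeks against wild type was 0 without any 1 of pools 1, 3, 4, 10, 11, 12, 16 or 17, and 3 without pool 18, when Kcnma1, Kcnmb1 and Itpr1 were called. Over all genes 492 were called at 8 weeks, 137 to 660 on leaving out 1 of the former pools, and 760 without pool 18. At 16 weeks against wild type the 3 calls became 6 without pool 2 and 5 without pool 18. Over all genes the 1991 calls became 3052 and 2047. Between 24 and 16 weeks the 2 calls became 1 without any 1 of pools 4, 6, 11 or 12. Over all genes the 1172 calls became 119, 266, 144 and 203 in the same order. For 24 against 8 weeks the 3 calls became 7 without pool 2, while the calls over all genes fell from 5676 to 4428.

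**Figure D1:**
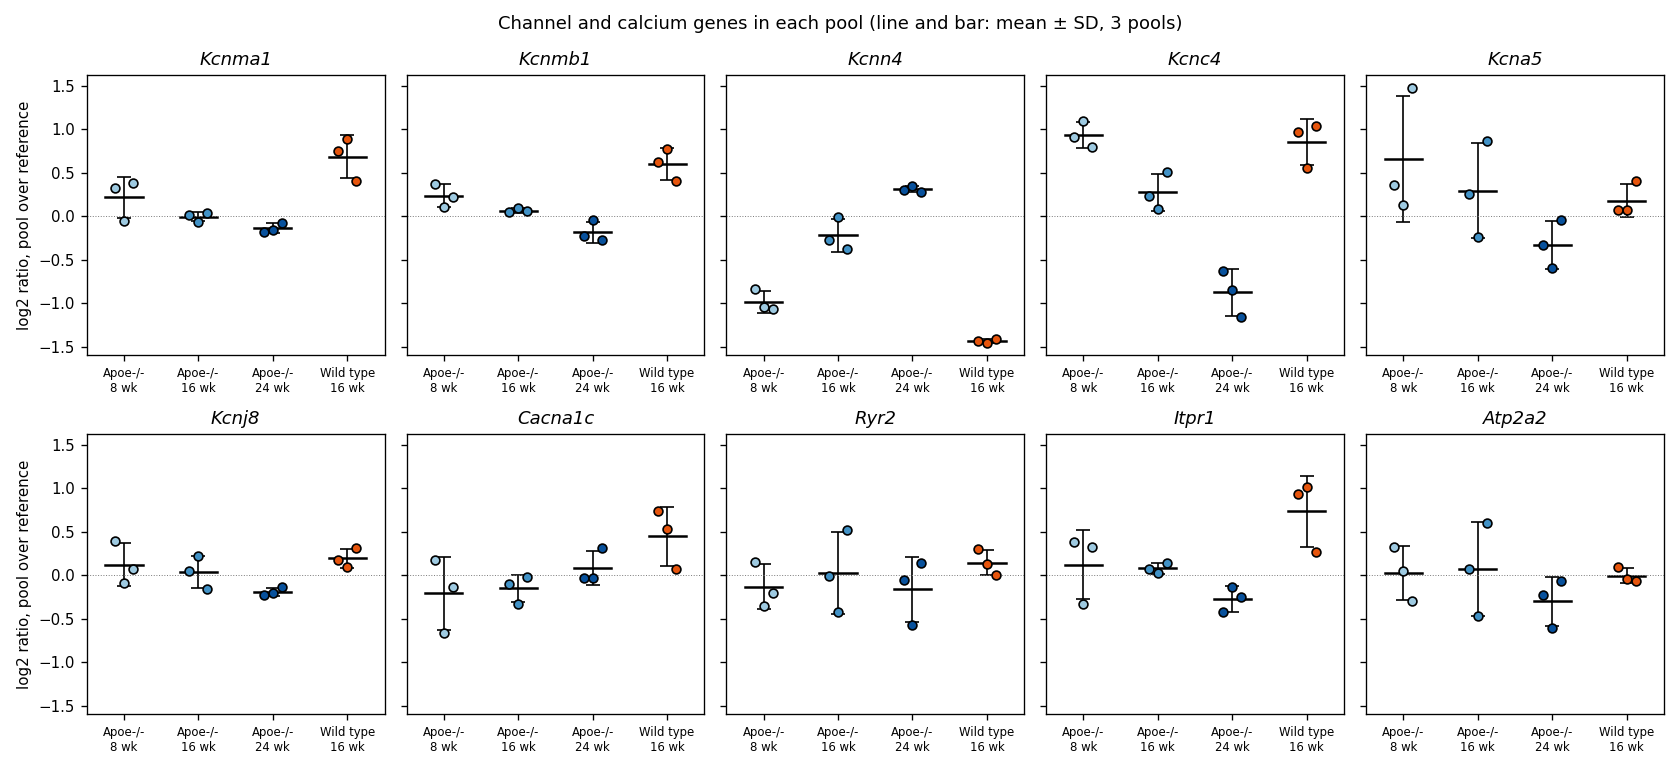
Log2 ratio of pool over reference (vertical axis) for each of the 10 genes in the 3 pools of each group, with the Apoe-/- groups at 8, 16 and 24 weeks of diet and wild type at 16 weeks from left to right. Points are pools, and the line and bar are the mean ± SD. Kcnn4 climbs over the Apoe-/- groups to a mean of 0.31 at 24 weeks, against -1.43 in wild type. Every other gene except Cacna1c has its lowest group mean at 24 weeks, by little in Ryr2 (-0.16, against -0.14 at 8 weeks).

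The 2 subunits of the BK channel were both lower in the Apoe-/- arch at 16 and 24 weeks than in wild type. Kcnma1, the pore subunit, had log2 ratios of 0.33, -0.05 and 0.38 in the 8-week pools 1, 2 and 3, 0.018, -0.062 and 0.038 in the 16-week pools 4, 5 and 6, and -0.18, -0.15 and -0.075 in the 24-week pools 10, 11 and 12. In wild type pools 16, 17 and 18 it had 0.76, 0.89 and 0.41. All 9 Apoe-/- pools lay below the lowest wild type pool, and the 24-week pools lay below every other pool. Kcnma1 was 1.61-fold lower at 16 weeks than in wild type (95% interval 1.32 to 1.97, log2 difference -0.69 ± 0.13 SE, adjusted p = 0.00668), and at 24 weeks 1.77-fold lower (1.44 to 2.17, log2 difference -0.82, adjusted p = 0.000974). The call at 16 weeks was lost without pools 6 and 17 together (adjusted p = 0.0703), the pools with the highest and lowest cardiac marker mean. At 8 weeks the log2 difference was -0.47 (95% interval -0.76 to -0.17, adjusted p = 0.0947). Without pool 18, which had the lowest wild type value, the adjusted p at 8 weeks was 0.0281. The 24-week group differed from the 8-week group by -0.36 on the log2 scale (adjusted p = 0.0665), which became an adjusted p of 0.0149 without pool 2 and 0.0325 without pool 18. In bulk tissue, fewer cells of a type and less RNA per cell cannot be told apart.

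Kcnma1 was read by 2 probes that moved alike over the 12 pools (r = 0.81, a description over pools that share the reference). The probe under the current name averaged 0.38 ± 0.09 at 8 weeks, 0.10 ± 0.075 at 16 weeks and -0.10 ± 0.052 at 24 weeks, against 0.60 ± 0.15 in wild type (SD, n = 3 each). The probe under the older name averaged 0.056 ± 0.382, -0.10 ± 0.093 and -0.17 ± 0.085 at the same times, against 0.78 ± 0.40 in wild type. Both passed alone at 16 weeks (adjusted p = 0.0052 and 0.0243) and at 24 weeks (0.000191 and 0.00829). They differed in their spread, since the older-name probe held pool 2 at -0.38 beside 0.26 and 0.29 in pools 1 and 3, and pool 18 at 0.32 beside 0.99 and 1.01 in pools 16 and 17. The current-name probe fell by 0.49 on the log2 scale at 24 weeks relative to 8 weeks (adjusted p = 0.00297), while the older-name probe had a difference of -0.22 (adjusted p = 0.449).

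Kcnmb1, the accessory subunit, had a single probe. Its log2 ratios were 0.38, 0.11 and 0.23 in the 8-week pools 1, 2 and 3, 0.045, 0.10 and 0.058 in the 16-week pools 4, 5 and 6, and -0.23, -0.047 and -0.27 in the 24-week pools 10, 11 and 12. The wild type pools 16, 17 and 18 had 0.63, 0.78 and 0.40. The 4 groups did not overlap and ran downward from wild type through 8 and 16 weeks to 24 weeks, with the lowest 8-week pool (0.11) close to the highest 16-week pool (0.10). Kcnmb1 was 1.72-fold lower at 24 weeks than in wild type (95% interval 1.47 to 2.02, adjusted p = 0.000247). At 16 weeks it was 1.45-fold lower (1.24 to 1.70, adjusted p = 0.00712), a call that was lost with quantile normalization (adjusted p = 0.162) and without pools 6 and 17 together (0.0872). At 8 weeks its log2 difference was -0.37 (-0.60 to -0.13, adjusted p = 0.0956, and 0.0363 without pool 18). At 24 relative to 8 weeks it fell by 0.42 on the log2 scale (1.34-fold, 1.14 to 1.57, adjusted p = 0.0138), a call that was lost without pool 12 (adjusted p = 0.061). Neighbouring times did not pass, with log2 differences of -0.17 between 16 and 8 weeks (adjusted p = 0.494) and -0.25 between 24 and 16 weeks (adjusted p = 0.192).

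Over the 12 pools the 2 BK subunits moved alike (r = 0.94). Their pools also followed the mean of the 16 smooth muscle markers, with r = 0.82 for Kcnma1 and 0.88 for Kcnmb1. Other marker means moved with them about as closely: r was -0.89 and -0.92 with macrophage, -0.87 and -0.83 with T cell, and 0.85 and 0.87 with pericyte markers, for Kcnma1 and Kcnmb1 in that order. The smooth muscle marker mean lay between 0.24 and 0.40 in the 8-week pools and between -0.039 and 0.12 in the 16-week pools. It lay between -0.37 and -0.20 in the 24-week pools, against 0.43 to 0.58 in wild type. The median log2 difference of the smooth muscle markers from wild type was -0.16 at 8 weeks, -0.51 at 16 weeks and -0.88 at 24 weeks. Beside these stood -0.47, -0.69 and -0.82 for Kcnma1 and -0.37, -0.53 and -0.78 for Kcnmb1. The part of smooth muscle or other cell content in the lower Kcnma1 and Kcnmb1 was not tested.

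The promoters of Kcnma1 and Kcnmb1 are shown because the 2 genes encode 1 channel and moved together. RefSeq windows on build GRCm38.p6, from 250 bases before to 50 after a gene's start, matched 8 of the 10 genes. Capitals mark matches, on either strand, to GGGCGG (the SP1 box) or GGAAA (the core of NFAT sites). The AP-1 motif TGANTCA, the TATA box TATAAA and the CArG box, the motif of serum response factor, were searched as well, and none of them matched in the 4 windows printed here. Of 32851 such windows, 35.7% held the SP1 box, 61.3% the NFAT core, 7.81% the AP-1 motif, 13.6% the TATA box and 1.63% the CArG box. No 2 of the motifs overlapped in the printed windows, though the first 2 SP1 boxes of Kcnma1 overlap each other.
Kcnma1 (chr14:24004156-24004455, minus strand): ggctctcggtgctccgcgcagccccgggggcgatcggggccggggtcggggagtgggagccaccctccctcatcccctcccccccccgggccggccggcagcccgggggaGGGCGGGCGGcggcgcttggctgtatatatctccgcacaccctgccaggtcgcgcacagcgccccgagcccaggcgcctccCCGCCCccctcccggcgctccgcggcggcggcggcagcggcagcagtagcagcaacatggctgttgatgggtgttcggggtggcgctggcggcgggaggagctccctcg
Kcnmb1 (chr11:33962763-33963062, plus strand): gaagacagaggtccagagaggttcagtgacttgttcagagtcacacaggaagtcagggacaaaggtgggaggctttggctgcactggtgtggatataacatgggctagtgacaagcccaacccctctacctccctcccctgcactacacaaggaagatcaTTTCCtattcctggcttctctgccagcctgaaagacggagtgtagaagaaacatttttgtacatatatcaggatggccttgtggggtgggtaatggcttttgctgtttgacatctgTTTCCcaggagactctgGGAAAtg
The Kcnma1 window was 78% G and C and held 3 SP1 boxes and no NFAT core. The Kcnmb1 window was 49.7% G and C and held 3 NFAT cores and no SP1 box, beside a median of 52.7% G and C over all windows. A match describes letters and not a bound site.

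Kcnn4 was the only 1 of the 10 genes called higher in any comparison, and 2 of its 3 probes carried the difference. Probe 10018173973 had log2 ratios of -1.08, -1.01 and -1.61 in the 8-week pools 1, 2 and 3, -0.41, -0.004 and -0.48 in the 16-week pools 4, 5 and 6, and 0.49, 0.49 and 0.40 in the 24-week pools 10, 11 and 12. The wild type pools 16, 17 and 18 had -1.92, -1.87 and -1.81. The 4 groups did not overlap, with wild type lowest and 24 weeks highest. This probe was 2.97-fold higher at 16 weeks than in wild type (95% interval 2.35 to 3.77, adjusted p = 0.00012) and at 24 weeks 5.02-fold higher (3.96 to 6.36, adjusted p = 2.25e-06). At 8 weeks the log2 difference was 0.63 (0.29 to 0.98, adjusted p = 0.0745).

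Probe 10024878467 gave the same order of groups with a wider span. It had -1.15, -1.23 and -1.56 in the 8-week pools 1, 2 and 3, -0.32, 0.064 and -0.49 in the 16-week pools 4, 5 and 6, and 0.48, 0.55 and 0.41 in the 24-week pools 10, 11 and 12. Wild type pools 16, 17 and 18 had -2.29, -2.37 and -2.30. Again no 2 groups overlapped, and the wild type pools lay close together. It was 2.01-fold higher at 8 weeks than in wild type (95% interval 1.63 to 2.48, adjusted p = 0.00704), 4.21-fold higher at 16 weeks (3.41 to 5.19, adjusted p = 1.37e-05) and 6.97-fold higher at 24 weeks (5.65 to 8.60, adjusted p = 5.8e-07).

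The third probe, 10028669367, stayed near the reference in most pools. It had -0.29, -0.91 and -0.031 in the 8-week pools 1, 2 and 3, -0.083, -0.075 and -0.17 in the 16-week pools 4, 5 and 6, and -0.052, 0.017 and 0.027 in the 24-week pools 10, 11 and 12. The wild type pools 16, 17 and 18 had -0.10, -0.10 and -0.13. Pool 2 stood lowest, the 8- and 16-week pools overlapped with wild type, and the 24-week pools lay just above it. None of the 6 comparisons was called for this probe, and at 24 weeks against wild type its log2 difference was 0.11 (95% interval -0.26 to 0.48, adjusted p = 0.714), and that interval lies below those of the other 2 probes. At 8 weeks against wild type its difference was -0.30 (-0.66 to 0.067, adjusted p = 0.347). The other 2 probes had 0.63 and 1.01 there, in the opposite direction.

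Each probe was tested alone over 39154 probes. Of the 18 tests of the 3 Kcnn4 probes, 11 were called, all of them higher: 6 of 6 for probe 10024878467 and 5 of 6 for probe 10018173973. Among all probes the share called in either direction was 1.42% at 8 weeks, 6.32% at 16 weeks and 15.2% at 24 weeks against wild type, and 1.35% between 16 and 8 weeks, 3.72% between 24 and 16 weeks and 21.4% between 24 and 8 weeks. At 24 relative to 8 weeks probe 10018173973 rose by 1.69 on the log2 scale (adjusted p = 5.41e-05) and probe 10024878467 by 1.79 (adjusted p = 2.41e-05), while probe 10028669367 had a difference of 0.41 (adjusted p = 0.0986). Those first 2 probes moved alike over the 12 pools (r = 0.99), while probe 10028669367 had r = 0.24 and 0.25 with them. Which exons or transcripts each probe reads was not examined.

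The value of Kcnn4 in the fit over genes is the mean of the 3 probes, so its differences are smaller than those of the first 2. In the 8-week pools this mean had an SD of 0.126, below those of the single probes (0.330, 0.218 and 0.451). Kcnn4 had a log2 difference from wild type of 0.45 ± 0.10 at 8 weeks (adjusted p = 0.0365), 1.22 ± 0.10 at 16 weeks (adjusted p = 2.12e-05) and 1.75 ± 0.10 at 24 weeks (SE, adjusted p = 6.47e-07). Within the Apoe-/- arch it rose by 0.77 between 16 and 8 weeks (adjusted p = 0.00513), by 0.53 between 24 and 16 weeks (adjusted p = 0.0133) and by 1.30 between 24 and 8 weeks (adjusted p = 1.88e-05). The call at 8 weeks against wild type was lost on leaving out any 1 of pools 1, 3, 4, 10, 11, 12, 16, 17 or 18, with adjusted p from 0.0515 to 0.147, and with quantile normalization (log2 difference 0.095, adjusted p = 0.817), in a fit of only the 2 groups (0.133) or without pools 6 and 17 (0.139). The call between 16 and 8 weeks was lost with quantile normalization (adjusted p = 0.219) and in a fit of only the 2 groups (0.0858). The call between 24 and 16 weeks was lost without any 1 of pools 4, 6, 11 or 12, with adjusted p from 0.0551 to 0.0725, and without pools 3 and 6 (0.0609) or 6 and 17 (0.0852).

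**Figure D2:**
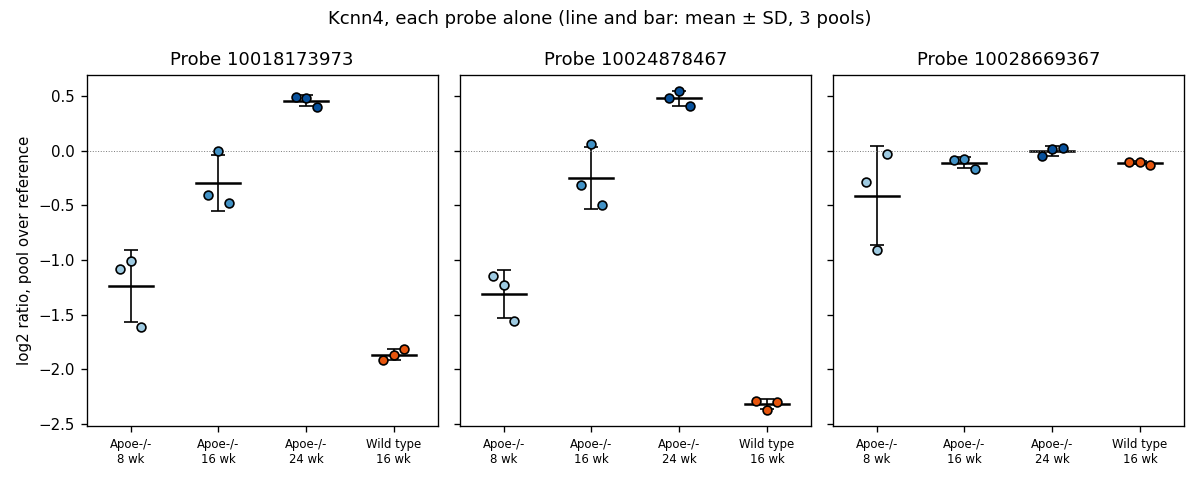
Log2 ratio of pool over reference (vertical axis) for each of the 3 Kcnn4 probes in the 3 pools of each group, Apoe-/- at 8, 16 and 24 weeks and wild type at 16 weeks. Points are pools, and the line and bar are the mean ± SD. Probes 10018173973 and 10024878467 reach means of 0.46 and 0.48 at 24 weeks, against -1.87 and -2.32 in wild type, and probe 10028669367 has means of -0.003 and -0.11 in the same groups.

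Of the 11 marker lists, Kcnn4 had its highest r with the mean of the macrophage markers, 0.99 over the 12 pools, and its lowest with that of the smooth muscle markers, -0.97. It had r = 0.88 with the fibroblast, 0.78 with the T cell and 0.49 with the endothelial markers. Of 5 T cell markers, 1 was higher at 8 weeks than in wild type, 3 at 16 weeks and 3 at 24 weeks, and of 7 endothelial markers 2, 3 and 2 were. The mean of the 10 macrophage markers lay between -1.83 and -1.44 in the 8-week pools, between -0.78 and -0.27 in the 16-week pools and between 0.38 and 0.54 in the 24-week pools, against -3.02 to -2.61 in wild type. Of those markers, 5 were higher at 8 weeks than in wild type, 8 at 16 weeks and 9 at 24 weeks, with 0 lower. The first 2 of the list differed in size: at 24 weeks Mpeg1 was 64.4-fold and Cd68 1.22-fold higher than in wild type. Whether macrophages, smooth muscle or another cell type holds the Kcnn4 RNA was not tested. Kcnn4 lies on chromosome 7, as Apoe does, with 35 tested genes between them among 1658 tested on the chromosome. The part of the chromosome region around Apoe in the Kcnn4 differences from wild type was not tested.

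The Kcnn4 promoter is printed because the gene moved opposite to the BK subunits.
Kcnn4 (chr7:24370013-24370312, plus strand): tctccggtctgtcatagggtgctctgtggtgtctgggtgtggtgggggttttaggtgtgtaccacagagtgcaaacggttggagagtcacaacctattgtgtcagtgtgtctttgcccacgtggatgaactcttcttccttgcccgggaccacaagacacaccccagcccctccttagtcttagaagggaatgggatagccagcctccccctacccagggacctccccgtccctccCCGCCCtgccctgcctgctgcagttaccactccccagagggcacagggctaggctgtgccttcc
It was 59.7% G and C and held 1 SP1 box, marked in capitals, and no NFAT core, AP-1 motif, TATA box or CArG box. These letters say nothing of which factors act on the gene.

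Kcnc4, the voltage-gated Kv3.4 channel, fell furthest of the 10 genes by 24 weeks. Its log2 ratios were 0.92, 1.10 and 0.80 in the 8-week pools 1, 2 and 3, 0.24, 0.085 and 0.51 in the 16-week pools 4, 5 and 6, and -0.62, -0.84 and -1.16 in the 24-week pools 10, 11 and 12. The values in wild type pools 16, 17 and 18 were 0.97, 0.55 and 1.04. The 8-week pools overlapped with the wild type pools, the 16-week pools just below them, and the 24-week pools far below all others. Kcnc4 was 3.31-fold lower at 24 weeks than in wild type (95% interval 2.57 to 4.28, adjusted p = 2.41e-05), 3.52-fold lower than at 8 weeks (2.72 to 4.54, adjusted p = 4.11e-05) and 2.22-fold lower than at 16 weeks (1.72 to 2.87, adjusted p = 0.00642).

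At 16 weeks the Kcnc4 log2 difference from wild type was -0.58 (95% interval -0.94 to -0.21, adjusted p = 0.0532). That difference passed on leaving out pool 2, 6, 12 or 17, with adjusted p of 0.0406, 0.043, 0.0437 and 0.0289. At 8 weeks the difference was 0.086 (-0.28 to 0.46, adjusted p = 0.795). Kcnc4 moved with the mean of the smooth muscle markers (r = 0.93 over 12 pools). At 24 weeks its log2 difference from wild type was -1.73. The markers had a median of -0.88, with -1.21 for Myh11 and -1.07 for Acta2. Kcnc4 was read by 1 probe. The part of smooth muscle content in the lower Kcnc4 was not tested.

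The promoter of Kcnc4 is given as that of the gene with the largest fall.
Kcnc4 (chr3:107458849-107459148, minus strand): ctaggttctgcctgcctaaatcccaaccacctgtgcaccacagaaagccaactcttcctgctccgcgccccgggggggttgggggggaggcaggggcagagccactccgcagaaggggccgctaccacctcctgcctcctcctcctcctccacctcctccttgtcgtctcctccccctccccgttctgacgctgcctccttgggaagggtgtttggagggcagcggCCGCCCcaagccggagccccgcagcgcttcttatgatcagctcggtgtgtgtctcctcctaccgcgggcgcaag
It was 66.7% G and C with 1 SP1 box, marked in capitals, and no match to the other 4 motifs.

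**Figure D3:**
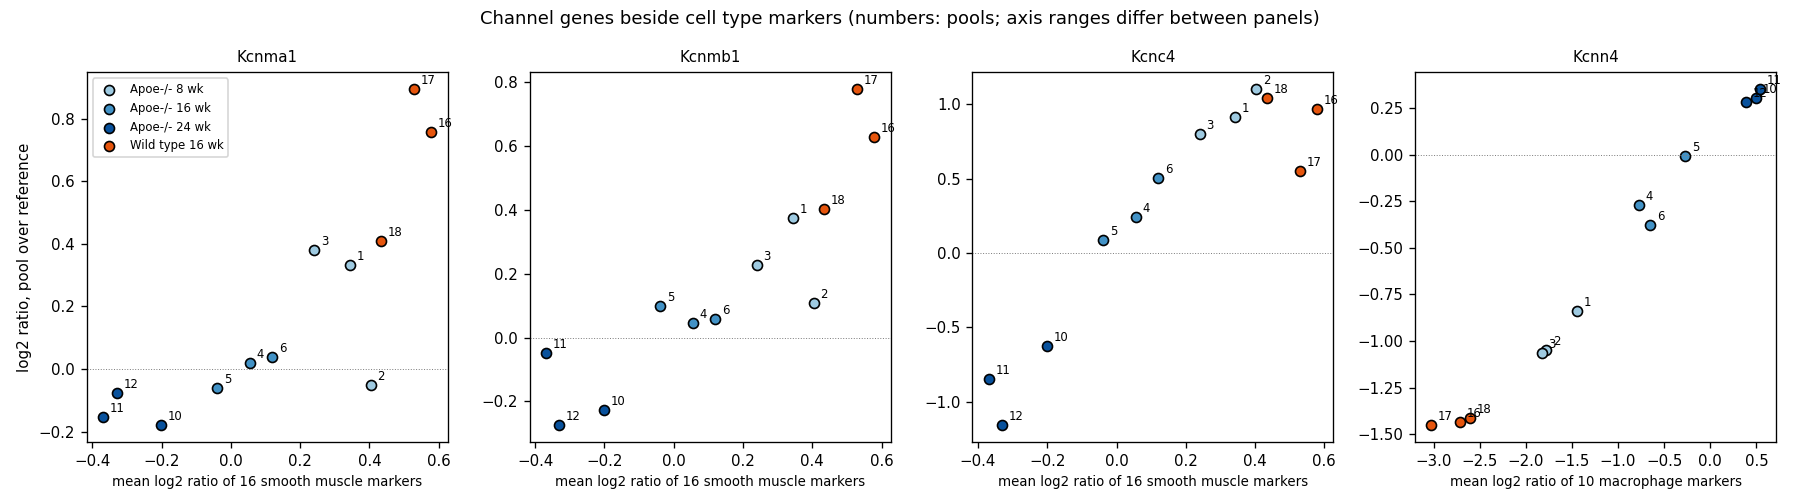
Log2 ratio of Kcnma1, Kcnmb1, Kcnc4 and Kcnn4 (vertical axes) in each of the 12 pools against the mean log2 ratio of 16 smooth muscle markers, or of 10 macrophage markers for Kcnn4 (horizontal axes). Points are pools with their numbers, and axis ranges differ between panels. The pools of Kcnn4 follow the macrophage mean (r = 0.99) and those of Kcnc4 the smooth muscle mean (r = 0.93).

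Kcna5, the Kv1.5 channel, varied widely within the 8- and 16-week groups and was called in no comparison. It had log2 ratios of 0.37, 0.13 and 1.48 in the 8-week pools 1, 2 and 3, 0.26, -0.23 and 0.87 in the 16-week pools 4, 5 and 6, and -0.33, -0.60 and -0.046 in the 24-week pools 10, 11 and 12. The wild type pools 16, 17 and 18 had 0.068, 0.075 and 0.41. The highest values were those of pools 3 and 6, the pools with an asterisk, and the 24-week pools lay below all 8-week and wild type pools. The log2 difference between 24 and 8 weeks was -0.98 (95% interval -1.74 to -0.23, adjusted p = 0.0516). It passed on leaving out pool 1, 2, 5 or 6, with adjusted p of 0.0444, 0.0288, 0.0461 and 0.0422. Against wild type the intervals crossed 0 at each time, with differences of 0.48 at 8 weeks (-0.28 to 1.23), 0.12 at 16 weeks (-0.64 to 0.87) and -0.51 at 24 weeks (-1.26 to 0.24). Over the 12 pools Kcna5 was closest to the means of the adipocyte markers (r = 0.83 with white and 0.73 with brown), both of which were highest in pool 3, at 0.30 and 0.74. The part of fat around the vessel in the Kcna5 values was not tested.

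Kcnj8, the pore of the vascular ATP-sensitive channel, was called lower in 1 comparison, and narrowly. It had 0.39, -0.095 and 0.071 in the 8-week pools 1, 2 and 3, 0.048, 0.22 and -0.16 in the 16-week pools 4, 5 and 6, and -0.23, -0.21 and -0.14 in the 24-week pools 10, 11 and 12. In wild type pools 16, 17 and 18 it had 0.18, 0.094 and 0.31. The 24-week pools lay below all wild type pools, and the other Apoe-/- groups overlapped with wild type. Kcnj8 was 1.31-fold lower at 24 weeks than in wild type (95% interval 1.08 to 1.58, adjusted p = 0.0493). That call was lost on leaving out any 1 of pools 3, 4, 10, 11, 12, 16, 17 or 18, with adjusted p from 0.0592 to 0.158, on centring each array on its median (0.0789) and with robust empirical Bayes (0.0502). It was lost as well without pools 3 and 6 (0.0529) and without pools 6 and 17 (0.0617).

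Cacna1c, the pore of the L-type calcium channel, was not called in any comparison. Its log2 ratios were 0.17, -0.66 and -0.14 in the 8-week pools 1, 2 and 3, -0.11, -0.33 and -0.026 in the 16-week pools 4, 5 and 6, and -0.030, -0.034 and 0.31 in the 24-week pools 10, 11 and 12. The wild type pools 16, 17 and 18 had 0.74, 0.53 and 0.072. The 16-week pools lay below all wild type pools, and the 8- and 24-week groups overlapped with wild type through pool 18. The log2 difference from wild type was -0.65 (95% interval -1.13 to -0.18, adjusted p = 0.128) at 8 weeks, -0.60 (-1.07 to -0.13, adjusted p = 0.117) at 16 weeks and -0.36 (-0.83 to 0.11, adjusted p = 0.254) at 24 weeks. At 16 weeks the adjusted p was 0.0396 without pool 2 and 0.0436 without pool 18. Unlike for Kcnma1 and Kcnmb1, its differences between diet times were all above 0, at 0.056 between 16 and 8 weeks, 0.23 between 24 and 16 weeks and 0.29 between 24 and 8 weeks, with adjusted p of 0.921, 0.565 and 0.324.

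Itpr1, the inositol trisphosphate receptor of the calcium store, was lower at 24 weeks than in wild type. It had 0.38, -0.34 and 0.32 in the 8-week pools 1, 2 and 3, 0.070, 0.024 and 0.14 in the 16-week pools 4, 5 and 6, and -0.43, -0.14 and -0.25 in the 24-week pools 10, 11 and 12. Wild type pools 16, 17 and 18 had 0.94, 1.01 and 0.26. The 24-week pools lay below the 16-week pools and these below wild type, and the 8-week pools overlapped with all 3 groups. Itpr1 was 2.01-fold lower at 24 weeks than in wild type (95% interval 1.45 to 2.78, log2 difference -1.01 ± 0.21 SE, adjusted p = 0.00545). The log2 differences at 16 and 8 weeks, -0.66 and -0.62, did not pass (adjusted p = 0.0827 and 0.146). Pool 18 lay well below the other wild type pools, and without it the adjusted p was 0.0128 at 16 weeks and 0.0376 at 8 weeks. Without pool 2 it was 0.0248 at 16 weeks. Itpr1 moved with Kcnma1 (r = 0.96) and Kcnmb1 (r = 0.93) over the 12 pools. Pool 2 was the lowest of the 8-week pools and pool 18 the lowest of the wild type pools for Kcnma1, Kcnmb1, Cacna1c and Itpr1 alike.

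**Figure D4:**
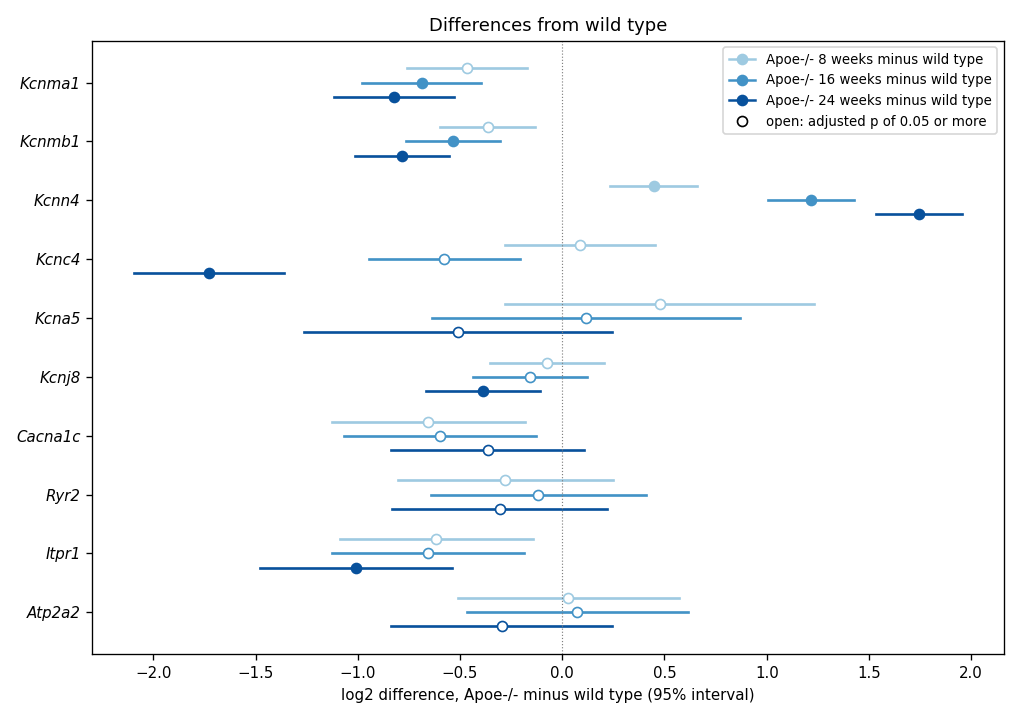
Log2 difference from wild type (horizontal axis) with its 95% interval for each gene at 8, 16 and 24 weeks of diet in Apoe-/- mice. Filled points passed an adjusted p of 0.05 over all genes and open points did not. Kcnn4 alone lies above 0 with filled points, and Kcnc4 reaches the lowest value, -1.73 at 24 weeks.

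Ryr2, the ryanodine receptor, and Atp2a2, the store's calcium pump, were each read by 2 probes of unequal spread, and neither gene was called in any comparison. Ryr2 probe 10021553322 had 0.21, -0.56 and -0.36 in the 8-week pools 1, 2 and 3, -0.098, -0.93 and 1.15 in the 16-week pools 4, 5 and 6, and -0.056, -1.15 and 0.29 in the 24-week pools 10, 11 and 12. The values in wild type pools 16, 17 and 18 were 0.38, 0.14 and -0.13. Pool 6 was the highest and pools 11 and 5 the lowest, so the groups overlapped throughout. The second probe, 10028675882, kept between -0.14 and 0.097 in all 9 Apoe-/- pools, against 0.21, 0.12 and 0.15 in wild type pools 16, 17 and 18. All Apoe-/- pools therefore lay below the wild type pools on this probe, by log2 differences of -0.19 at 8 weeks, -0.15 at 16 weeks and -0.18 at 24 weeks, with adjusted p of 0.224, 0.383 and 0.153. The 2 Ryr2 probes had r = 0.02 over the 12 pools. The mean of both gave log2 differences from wild type of -0.28 (95% interval -0.81 to 0.25), -0.12 (-0.64 to 0.41) and -0.31 (-0.83 to 0.22) at 8, 16 and 24 weeks.

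Atp2a2 probe 10023852747 spread as the first Ryr2 probe did, with 0.29, -0.16 and -0.44 in the 8-week pools 1, 2 and 3, 0.077, -0.76 and 1.09 in the 16-week pools 4, 5 and 6, and -0.22, -1.08 and 0.046 in the 24-week pools 10, 11 and 12. In wild type pools 16, 17 and 18 it had 0.031, -0.091 and -0.23. Pool 6 was again the highest and pools 11 and 5 the lowest. The 2 Atp2a2 probes had r = 0.53 over the 12 pools. The other probe, 10028670585, had 0.35, 0.26 and -0.16 at 8 weeks, 0.065, -0.18 and 0.12 at 16 weeks and -0.24, -0.14 and -0.18 at 24 weeks, against 0.17, -0.008 and 0.097 in wild type. On it the 24-week pools lay below the wild type pools, by a log2 difference of -0.27 (adjusted p = 0.177). The mean of both probes differed from wild type by 0.030 (95% interval -0.51 to 0.57), 0.074 (-0.47 to 0.61) and -0.30 (-0.84 to 0.24) at 8, 16 and 24 weeks.

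Heart muscle uses both Ryr2 and Atp2a2 heavily, and cardiac muscle markers varied widely between the pools. The mean log2 ratio of 10 cardiac markers led by Myh6 and Myl7 was 0.10, -0.89 and -2.04 in the 8-week pools 1, 2 and 3, -0.43, -1.61 and 1.11 in the 16-week pools 4, 5 and 6, and 0.057, -1.68 and 0.34 in the 24-week pools 10, 11 and 12. It was -1.04, -2.19 and -0.72 in wild type pools 16, 17 and 18. Pool 6 was highest here as well, while pools 17 and 3, the lowest, were not those lowest for Ryr2 or Atp2a2. The cardiac mean had r = 0.67 with the first Ryr2 probe and 0.75 with the first Atp2a2 probe, against -0.30 and 0.27 with the second probes. None of the 10 cardiac markers was called in any of the 6 comparisons by limma, and Nppa, named here after its values were seen, was the 1 with an unadjusted p under 0.05, higher at 24 weeks than in wild type. Their median log2 differences from wild type were 0.29, 0.94 and 0.97 at 8, 16 and 24 weeks. The part of heart tissue in the Ryr2 and Atp2a2 values was not tested.

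**Figure D5:**
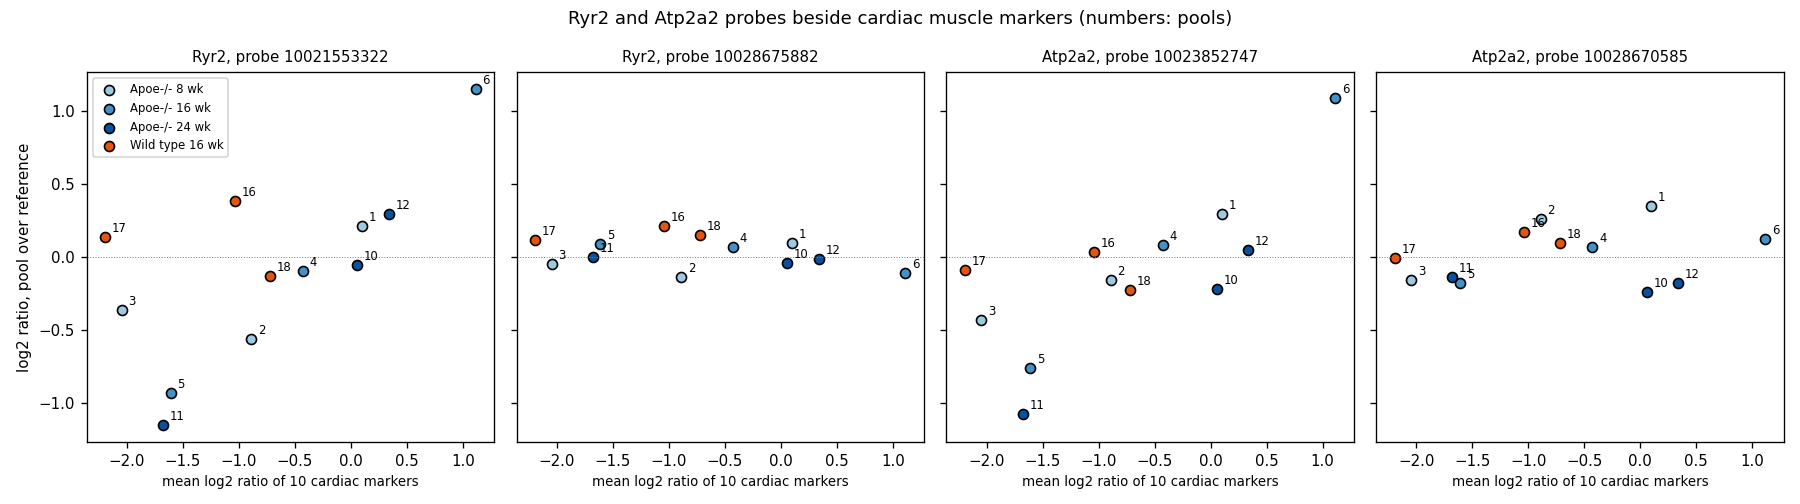
Log2 ratio of the 2 Ryr2 and the 2 Atp2a2 probes (vertical axis) against the mean log2 ratio of 10 cardiac markers (horizontal axis) in the 12 pools, numbered. Pool 6 has the highest cardiac mean, 1.11, and the highest ratio on probes 10021553322 (1.15) and 10023852747 (1.09), while the other probe of each gene spans a narrower range.

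The wider gene families were set beside the 10 genes through 7 lists of other channel, calcium, calcium-effector and cyclic GMP signalling genes, 118 of which were tested. In these lists 3 genes were higher and 2 lower at 8 weeks than in wild type, 7 higher and 9 lower at 16 weeks, and 16 higher and 19 lower at 24 weeks. The shares at 24 weeks, 13.6% higher and 16.1% lower, compare with 11.6% and 11.3% of all genes. Those at 16 weeks, 5.93% and 7.63%, compare with 6.03% and 4.07%, and those at 8 weeks, 2.54% and 1.69%, with 1.76% and 0.736%. At 24 relative to 8 weeks 16 were higher and 16 lower, 13.6% each, close to the 14.7% and 14.1% of all genes.

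Of 44 other potassium channel genes in 3 of the lists, 3 were higher and 3 lower at 24 weeks than in wild type, 6.82% each, beside 11.6% and 11.3% of all genes. Of 8 calcium-activated channels, subunits and relatives, Kcnn1, a small-conductance channel, was 1.43-fold lower at 24 weeks than in wild type (adjusted p = 0.00551). At 8 and 16 weeks limma called 0 of the 8, and none had an unadjusted p under 0.05. Of 24 voltage-gated channel and subunit genes, Kcnab1, an accessory subunit of Kv1 channels, was 2.09-fold lower at 16 weeks (adjusted p = 0.0144) and at 24 weeks 2.30-fold lower (adjusted p = 0.00347). At 24 weeks Kcnq5 was 1.35-fold lower and Kcnab2 1.23-fold higher. Of 12 inward rectifier, ATP-sensitive and two-pore channel genes, Kcnk6 and Kcnj2 were 2.49-fold (adjusted p = 8.95e-05) and 1.51-fold higher at 24 weeks (adjusted p = 0.0188), and none was lower. Abcc9, the regulatory subunit that partners Kcnj8, was in that list and had a log2 difference of -0.29 at 24 weeks (adjusted p = 0.132).

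Of 26 calcium entry genes tested, 2 were higher and 2 lower at 16 weeks than in wild type, 7.69% each beside 6.03% and 4.07% of all genes. At 24 weeks 4 were higher and 6 lower, 15.4% and 23.1% beside 11.6% and 11.3%. Cacnb2, an accessory subunit of the L-type channel, was 1.54-fold lower at 16 weeks (adjusted p = 0.02) and at 24 weeks 2.02-fold lower (adjusted p = 0.000437). P2rx1, the ATP-gated channel of contractile smooth muscle, was 1.73-fold lower at 24 weeks, whereas P2rx4, another ATP-gated channel also known from macrophages, was 2.16-fold higher (adjusted p = 8.19e-06). Trpc6, a receptor-operated cation channel, was higher at every time, 1.63-fold at 8 weeks, 1.89-fold at 16 weeks and 1.99-fold at 24 weeks (adjusted p = 0.0104, 0.000412 and 8.38e-05). Stim1, the calcium sensor of the store, was 1.29-fold lower at 24 weeks and Orai2, of the family of its partner channels, 1.41-fold higher. Pkd1, Cacna1g and Trpm4 were 1.41-fold, 1.25-fold and 1.22-fold lower and Trpv2 1.40-fold higher.

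In the calcium store, Itpr3 was higher where Itpr1 was lower. Itpr3 was 2.14-fold higher at 16 weeks than in wild type (adjusted p = 0.00119) and 2.71-fold higher at 24 weeks (adjusted p = 6.53e-05), and Itpr2 was 1.32-fold, 1.28-fold and 1.27-fold higher at 8, 16 and 24 weeks. Mrvi1, which links the inositol trisphosphate receptor to cyclic GMP signalling, was 1.64-fold lower at 16 weeks (adjusted p = 0.00319) and at 24 weeks 2.45-fold lower (adjusted p = 1.84e-05). Of 16 store genes, 4 were higher and 2 lower at 24 weeks, 25% and 12.5% beside 11.6% and 11.3% of all genes. The others among these were Fkbp1b (1.42-fold) and Calr (1.33-fold) higher and Jph2 (1.31-fold) lower. Of 15 calcium removal genes, 1 was higher and 3 lower at 24 weeks, 6.67% and 20% beside 11.6% and 11.3% of all genes. The sodium-calcium exchanger Slc8a2 was 2.53-fold lower (adjusted p = 4.33e-06), its potassium-dependent relative Slc24a3 2.12-fold lower (adjusted p = 1.76e-05) and the pump Atp2a3 1.19-fold lower. The plasma membrane pump Atp2b1 was 1.80-fold higher (adjusted p = 0.0262).

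A list of calcium-dependent effectors, with 17 genes tested, also held Gucy1a1, Gucy1b1 and Prkg1, which belong to nitric oxide and cyclic GMP signalling. In this mixed list 3 genes were higher and 2 lower at 16 weeks than in wild type, 17.6% and 11.8% beside 6.03% and 4.07% of all genes. At 24 weeks 4 were higher and 5 lower, 23.5% and 29.4% beside 11.6% and 11.3%. The nitric oxide receptor subunit Gucy1a1 was 1.35-fold, 1.51-fold and 2.34-fold lower at 8, 16 and 24 weeks (adjusted p = 0.0282, 0.00118 and 2.44e-06). At 24 weeks the kinase Camk2g was 1.92-fold lower (adjusted p = 0.000103), Prkg1, the cyclic GMP kinase, 1.61-fold lower, and Camk2b and Gucy1b1 1.29-fold and 1.26-fold lower. Calm3, a calmodulin gene, was 1.62-fold, 1.90-fold and 1.87-fold higher at 8, 16 and 24 weeks (adjusted p = 0.000546, 9.75e-06 and 1.51e-06). The calcineurin subunit Ppp3ca was 2.00-fold higher at 24 weeks, and the calcineurin targets Nfatc2 and Nfatc1 were 1.63-fold and 1.40-fold higher.

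The genes whose pattern was most like that of each of the 10 were found by Pearson r over the 12 pools, which share the reference, among all genes tested. Kcnn4 was closest to Fabp5 (r = 0.998), Pira2 (0.997) and Bcl2a1d (0.997). Kcnmb1 was closest to Dstn (0.981), Ift43 (0.975) and Efhd1 (0.974), and Kcnma1 to Pcdha4 (0.983), Fgfr2 (0.982) and Rbp4 (0.979). For Kcnc4 they were Fbxo10 (0.975), Pgm5 (0.974) and Slx1b (0.973), and for Itpr1 Fry (0.997), Sorl1 (0.983) and Oat (0.980). Atp2a2 was closest to Kcnj11 (0.944), Ldb3 (0.919) and Myoz2 (0.907), the last of which is among the cardiac markers. Ryr2 was closest to Prepl (0.946), Ndufa4 (0.874) and Txlnb (0.874), and Cacna1c to AI597479 (0.962), Dpy30 (0.960) and Ncor1 (0.959). For Kcna5 and Kcnj8 the closest genes were 4930465K10Rik (0.958) and 4930461C15Rik (0.908), followed by Krt20 (0.957) and Il5ra (0.952) for Kcna5 and by Tmtc2 (0.869) and Olfml2b (0.863) for Kcnj8. These are descriptions of 12 pools.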

How the data were processed

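Aortic arch RNA of 12 pools, 3 in each of 4 groups, was read on 12 arrays against 1 common reference, after aminoallyl amplification per the labels' protocols. The deposited values are ratios of pool over reference, stated by neither the labels nor the file headers to be log10. They were taken as log10 because the lowest value, at 2 probes, is exactly -2, and because for Pth, Prm1 and Jchain, each high in 1 pool, that pool would account for 8.5% to 15.7% of the reference in base 10 and 29.3% to 43.6% in base 2, if the reference of 21 mice holds the pool's 3 mice. A check that the mean linear ratio over the 3 times is near 1 did not favour base 10: its median over 500 probes was 0.856 in base 10, 0.895 in base e and 0.92 in base 2. The direction follows the dyes in the labels and the high ratio of Apoe in wild type pools. No source used here gives the scanner, the authors' normalization or intensities, so precision can be judged only from the spread between arrays, whose number limits it. Each p-value reflects how far pools of 1 group differ.

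The deposited log10 values were turned into log2 ratios (times 3.322). Older symbols were updated (5952 of 20551), and where several probes read 1 gene their mean was taken. Of the resulting 19896 genes, 19705 had enough values to be tested. The 4 groups entered 1 linear model over all 12 arrays (limma 3.58.1, R 4.3.3, moderated by eBayes), with Benjamini-Hochberg adjustment over all genes, or over 39154 probes for single probes, and a threshold of 0.05. The fit was tested on simulated data first. The 10 genes, the lists and the markers were chosen with earlier results of these data known. Genes outside the 10 were named where they passed the threshold within a list, as the first 2 markers of a cell type, or as the 3 with the highest Pearson r over the pools. Nppa is an exception. Promoter windows are RefSeq's on GRCm38.p6. Alternatives were leaving out each pool, pools 3 and 6 or pools 6 and 17, quantile normalization, median centring, array weights, robust empirical Bayes, only the groups compared, at least 2 values per group, and requiring every probe of a gene to pass alone. The choice of pools 6 and 17 was made after seeing the data.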

Additional observations from a re-analysis of the deposited data

Results flagged for a closer look

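For 3 of the 10 genes the difference from wild type was not the same at 24 weeks as at 8 weeks. This was read from the test of the 24-week against the 8-week Apoe-/- pools, in which the shared wild type pools drop out. That test called 14.7% of all genes higher and 14.1% lower, and the 1 higher and 2 lower of the 10 are close to those shares. For Kcnn4 the log2 difference between those times was 1.30 (adjusted p = 1.88e-05), for Kcnc4 -1.81 (adjusted p = 4.11e-05) and for Kcnmb1 -0.42 (adjusted p = 0.0138). In Kcnn4, Kcnc4 and Kcnmb1 every 24-week pool lay beyond every 8-week pool, but these genes were picked by the same test, so that adds no support. The same separation held for Kcnma1, Kcna5 and Kcnj8, which were not called. The share of all genes separated in this way was not counted. Age differs between the times together with the length of diet, and the macrophage and smooth muscle marker means differ as well, so their parts cannot be told apart.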

How the results depend on the processing

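Of 16 calls among the 10 genes and 6 comparisons, 6 were kept under all 21 alternatives and 10 were lost under some. Of those 10, 3 were lost only where every probe of a gene had to pass alone: Kcnn4 at 16 and 24 weeks against wild type and at 24 against 8 weeks. Under the other 20 alternatives 0 calls changed direction, and 15 of the 44 differences that were not called passed under some. The number of genes called at 8 weeks against wild type, 1, became 0 with quantile normalization, with only the groups compared, without pools 6 and 17 and where every probe of a gene had to pass, and 2 with array weights, and ranged from 0 to 3 on leaving out 1 pool. Over all genes the 492 calls became 7, 29 and 112 in the first 3 of these settings and 694 with array weights. At 16 weeks against wild type the 3 calls became 6 with array weights and ranged from 3 to 6 on leaving out 1 pool. Kcnmb1 was lost with quantile normalization, and Kcnn4 where every probe had to pass. Without pools 6 and 17 Kcnma1 and Kcnmb1 were lost and Kcnc4 was gained. Over all genes the 1991 calls became 5604 with array weights, 893 with quantile normalization and 1010 without pools 6 and 17. At 24 weeks against wild type the 6 calls ranged from 5 to 6 on leaving out 1 pool. Kcnj8 was lost with median centring, with robust empirical Bayes, without pools 3 and 6 and without pools 6 and 17. Kcnj8 and Kcnn4 were lost where every probe had to pass. Cacna1c was gained with array weights, where the calls over all genes rose from 4504 to 8180. Between 16 and 8 weeks the 1 call became 0 with quantile normalization, with only the groups compared and where every probe had to pass, and 2 without pools 6 and 17, and stayed at 1 on leaving out any 1 pool. Over all genes the 472 calls became 1 with quantile normalization, 0 with only the groups compared and 366 without pools 6 and 17. Between 24 and 16 weeks the 2 calls became 4 with quantile normalization and 5 with array weights, and 1 without pools 3 and 6, without pools 6 and 17 and where every probe had to pass, and ranged from 1 to 2 on leaving out 1 pool. Itpr1 was gained with only the groups compared. Over all genes the 1172 calls became 5034 with quantile normalization and 6296 with array weights. They became 200 without pools 3 and 6, 95 without pools 6 and 17 and 3328 with only the groups compared. Between 24 and 8 weeks the 3 calls became 7 with quantile normalization and 7 with array weights, and ranged from 2 to 7 on leaving out 1 pool. Kcnn4 was lost where every probe had to pass. Over all genes the 5676 calls became 5695 with quantile normalization and 5201 with array weights. The F test over the times called 7 genes with array weights and 1 where every probe had to pass, beside 3, and 2 to 4 on leaving out 1 pool. Over all genes it called 6623 with array weights, beside 3615. The 11 calls among 18 Kcnn4 probe tests became 7 with quantile normalization and ranged from 9 to 13 on leaving out 1 pool. The causes of these changes were not tested. No paired analysis was possible because the pool numbers differ between the groups.

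With 3 pools a group, small differences such as those of Ryr2 and Atp2a2, whose intervals reach both sides of 0, could not be resolved. The ratios carry no intensity, so dim probes cannot be told from bright ones, and without a dye swap a dye effect of a probe stays in its ratios, though it drops out of differences between groups. Single probes read 6 of the 10 genes.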
